A study of Mus musculus with 26 samples.

Results

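Hcar1, Hcar2, Ptger3, Adora1, Ffar4 and Rgs2 encode 5 receptors through which small molecules restrain the breakdown of fat in adipocytes, and 1 regulator of G protein signalling. They were found as the rows with these gene symbols in a table of FPKM values (fragments scaled to the length of the transcript and the size of the library) for mouse brown adipose tissue, and are 6 of its 48432 genes. The 6 genes were chosen by name with results of these data already known, so their values are given as a description and no p-value is attached to them. The study deleted Klf15, a zinc finger transcription factor, and sampled the tissue under fasting and cold.

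BKO mice carried the alleles Ucp1-Cre/+;K15F/F, in which Cre under the Ucp1 promoter removes floxed Klf15 in brown adipocytes. The other cells of the depot are not targeted by this promoter. FF mice were Klf15 flox/flox without Cre, so both genotypes carried the floxed alleles, and all mice were 2 months old. Each genotype was sampled fasted at room temperature (n = 3 libraries), in a cold challenge (n = 4), in cold plus fasting (n = 3) and fed at room temperature (n = 3), which makes 26 libraries. Each library has its own number in the labels, read here as that of an animal, though the labels do not say so. They give neither the length of the cold and the fast nor whether mice in the cold challenge had food.

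Lipolysis in adipocytes is switched on through receptors coupled to the stimulatory G protein Gs, such as the beta-adrenergic receptors, which raise cAMP and activate protein kinase A. Receptors coupled to the inhibitory G protein Gi lower cAMP and so oppose this. Hcar1 is the receptor for lactate, Hcar2 for beta-hydroxybutyrate and niacin, Ptger3 for prostaglandin E2 and Adora1 for adenosine, and all 4 couple to Gi. Ffar4 senses long-chain fatty acids and couples to Gq as well as Gi. Rgs2 encodes a GTPase-activating protein that shortens signalling by Gq and can also act on adenylyl cyclases.

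Sums of FPKM per library lay between 388107 and 501068, and read counts were not used here, so depth is unknown. Klf15 averaged 8.56 ± 0.539 FPKM in fasted BKO mice and 24.1 ± 5.18 FPKM in fasted FF mice, and 3.99 ± 1.03 FPKM in fed BKO mice and 27.97 ± 3.87 FPKM in fed FF mice (SD, n = 3 each). It was lower in BKO mice in the other 2 conditions too. Library numbers in the labels form a series of 1 to 8 and another of 15 to 32. All 13 BKO libraries belong to the later one, as do 1 of 4 FF libraries in cold, 1 of 3 in the fed state, 3 of 3 in cold plus fasting and 0 of 3 in the fasted state. In fasted mice the series and the genotype therefore cannot be told apart. FF fed replicate 3, which has the later number in its group, stood apart for Rgs2 and Ffar4, and values without it are given below.

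All 6 genes passed the filter of at least 1 FPKM in at least 3 libraries, as did 12702 genes in all. The mean level of Rgs2 was higher than that of 94.5% of the tested genes, against 87.4% for Ffar4, 82.3% for Adora1, 72.4% for Ptger3, 58.7% for Hcar1 and 28.3% for Hcar2. The highest library exceeded the lowest 80.1-fold for Hcar1, 30-fold for Ptger3, 20.3-fold for Hcar2, 12.4-fold for Rgs2, 7.52-fold for Ffar4 and 3.07-fold for Adora1. The lactate and prostaglandin receptors thus spanned the widest range and the adenosine receptor the narrowest. The lowest library held 0.559 FPKM for Hcar1 and 0.567 FPKM for Hcar2, both under 1 FPKM. The ratios of these 2 genes therefore rest on values near the floor.

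**Figure D1:**
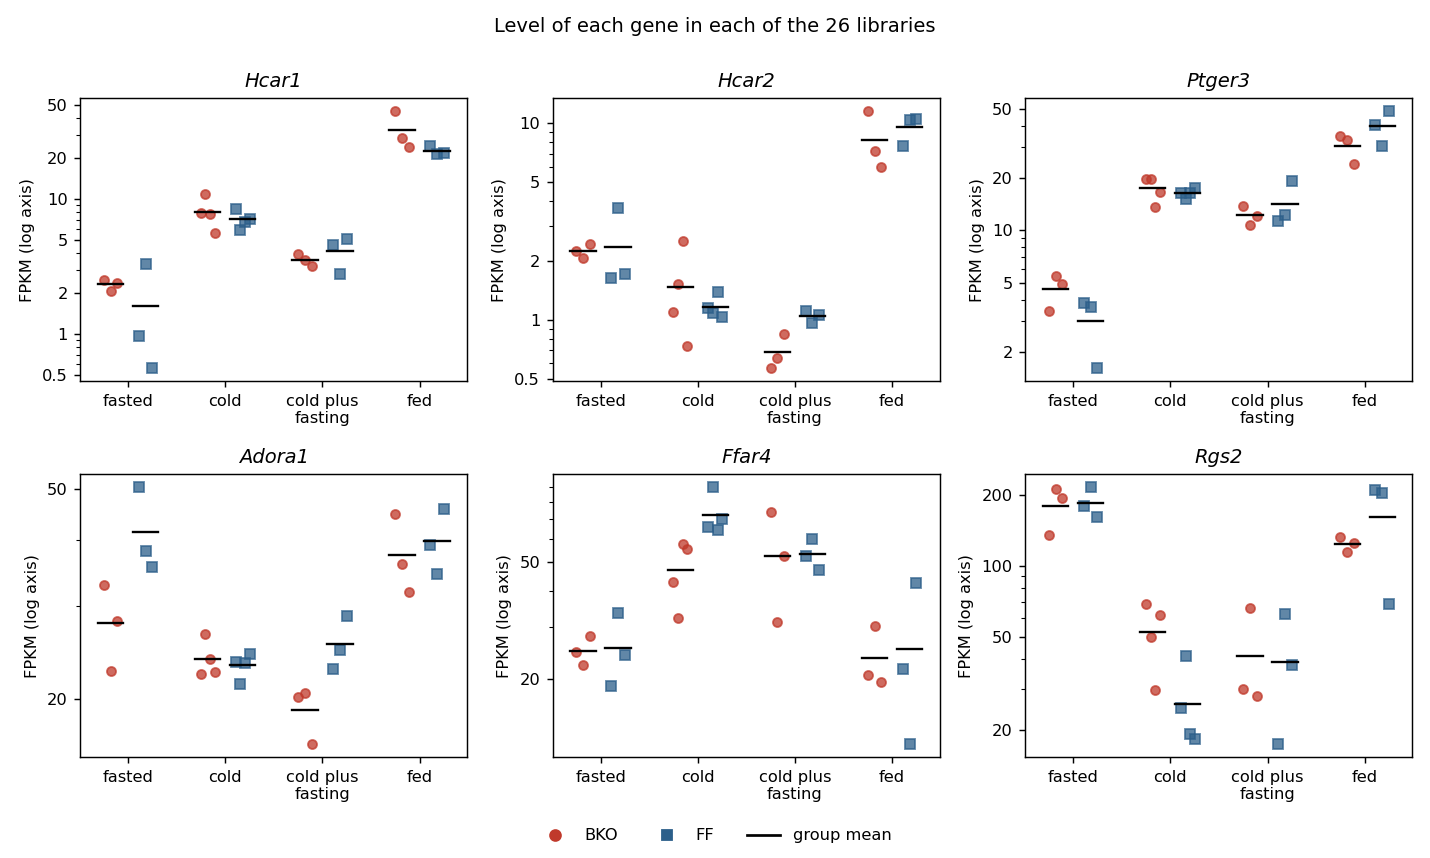
Level of each gene in every library, in FPKM on a log axis, by condition, with BKO mice (circles) left of FF mice (squares) and the group mean as a bar. Hcar1, Hcar2 and Ptger3 are highest in fed mice, Rgs2 is high in fasted and fed mice, and Ffar4 is highest in the 2 cold conditions.

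In cold and in cold plus fasting each of the 6 differed from the fed state in both genotypes: 5 were lower and Ffar4 was higher. A gene was called where limma, fitted to log2(FPKM + 1) over all 12702 genes and 26 libraries, gave an adjusted p below 0.05. In cold 6 of 6 were called in BKO mice, where 16.2% of all tested genes were called, and 6 of 6 in FF mice, where 23.6% were. In cold plus fasting the count was again 6 of 6 in BKO mice (19% of all tested genes) and 6 of 6 in FF mice (20.5%), with the same directions. Fasting at room temperature gave 4 of 6 in BKO mice (27.4% of all tested genes) and 3 of 6 in FF mice (37.5%), all of them lower. With libraries numbered 15 to 32 alone, which keep 1 cold and 1 fed FF library, the cold calls in FF mice ended for Hcar1 (-1.28), Ptger3 (-1.51), Adora1 (-0.93), Ffar4 (0.62) and Rgs2 (-1.44), with their directions unchanged. Since the 6 were chosen with such results known, nothing is read from these counts.

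The median log2 difference of the 6 from the fed state was -0.94 in fasted BKO mice and -0.82 in fasted FF mice. It was -1.03 in BKO mice and -1.38 in FF mice in cold, and -1.46 in BKO mice and -1.72 in FF mice in cold plus fasting. Over all tested genes every one of these medians lay between -0.01 and 0.01. The 3 responses of a genotype share its fed libraries, so an unusual fed library enters all 3.

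**Figure D2:**
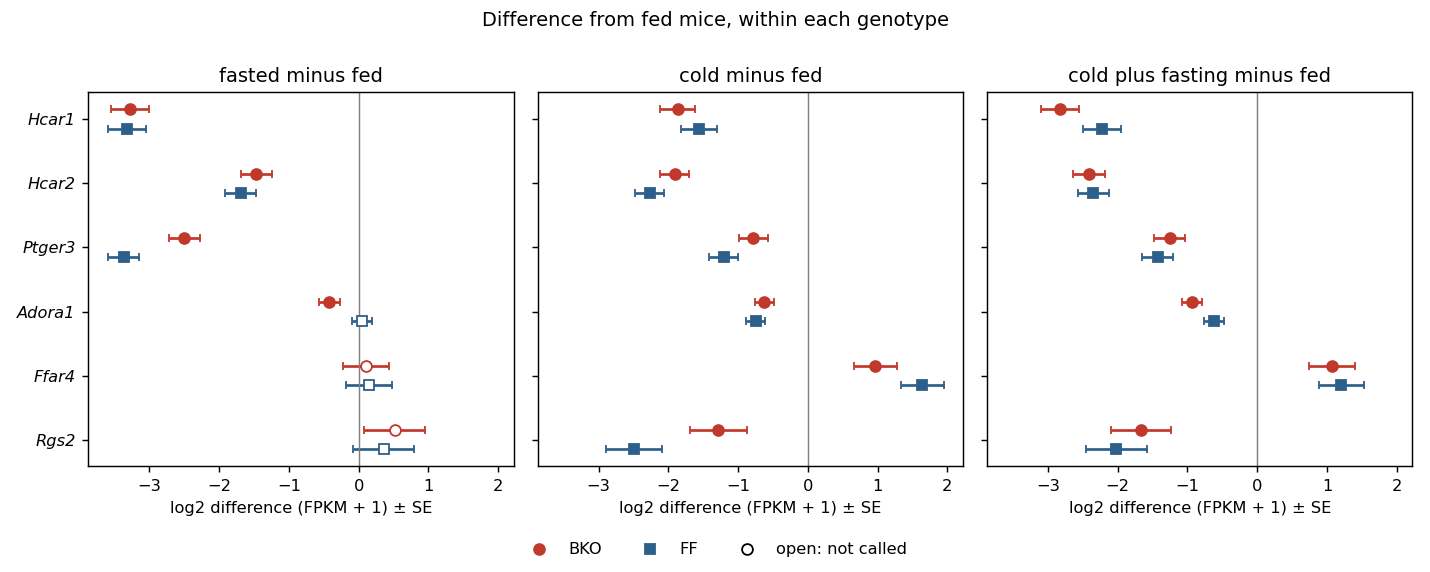
Log2 difference of each gene from the fed libraries of the same genotype, on the log2(FPKM + 1) scale, with its SE, for BKO mice (circles, upper) and FF mice (squares, lower). Open symbols were not called: Ffar4 and Rgs2 in both genotypes and Adora1 in FF mice, all under fasting at room temperature.

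Adora1 was lower in fasted BKO mice, the 1 of 6 called there, where 8.68% of all tested genes were called. In cold 0 of 6 were called (0.402% of all tested genes), in cold plus fasting 0 of 6 (0.236%) and in the fed state 0 of 6 (0.22%). At an unadjusted p under 0.05 limma gave 477 of all tested genes in cold, 729 in cold plus fasting and 742 in the fed state. Differences of responses between genotypes gave 0 of 6 for fasting (0.716% of all tested genes), 0 of 6 for cold (0.00787%) and 0 of 6 for cold plus fasting (0.00787%). At an unadjusted p under 0.05 limma gave 1520 of all tested genes for fasting, 432 for cold and 481 for cold plus fasting.

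**Figure D3:**
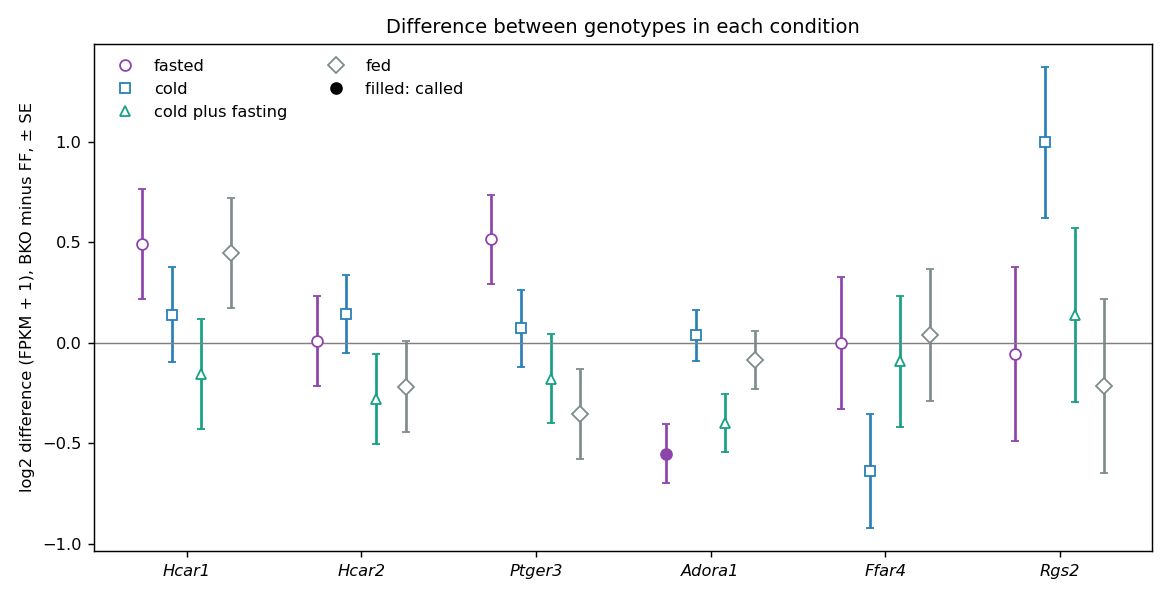
Log2 difference between BKO and FF mice (BKO minus FF, log2(FPKM + 1) scale) for each gene in each of 4 conditions, with its SE. Adora1 in fasted mice (filled) was called at -0.55, while Rgs2 in cold had the widest distance from 0, at 1.00 with an SE of 0.38, and was not called.

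Hcar1, the lactate receptor, was a gene of the fed state. It lies on chromosome 5, 123876736 to 123880020 on the reverse strand of GRCm38 (ENSMUSG00000049241.5), as a single exon. Its promoter, from 250 bases before to 50 after the start of transcription, is shown because Hcar1 had the widest range of the 6. The sequence is RefSeq's for GRCm38.p6, chr5:123879954-123880253, reverse strand, written 5′ to 3′ with matches to CACCC on either strand in capitals, a box that Kruppel-like factors such as Klf15 can bind.
Hcar1 promoter: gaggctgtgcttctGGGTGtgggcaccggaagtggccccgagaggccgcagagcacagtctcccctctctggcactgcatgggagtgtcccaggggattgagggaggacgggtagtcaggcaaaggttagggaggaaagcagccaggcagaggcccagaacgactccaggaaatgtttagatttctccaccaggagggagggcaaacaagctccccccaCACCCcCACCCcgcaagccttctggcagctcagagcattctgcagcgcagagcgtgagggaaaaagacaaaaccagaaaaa

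Fasted BKO mice had 2.51, 2.09 and 2.41 FPKM of Hcar1, against 0.970, 3.31 and 0.559 FPKM in fasted FF mice. The cold libraries held 7.88, 10.9, 7.76 and 5.57 FPKM in BKO mice, against 8.49, 5.88, 6.79 and 7.15 FPKM in FF mice. Cold plus fasting gave 3.91, 3.54 and 3.18 FPKM in BKO mice, against 4.59, 2.79 and 5.09 FPKM in FF mice. The means of the 3 conditions thus ordered themselves in the same way in both genotypes, with fasting at room temperature lowest. In FF mice the fasted and the cold plus fasting libraries overlapped, at 3.31 FPKM in fasted replicate 2 and 2.79 FPKM in cold plus fasting replicate 2. Fed mice had 44.8, 28.2 and 24.2 FPKM if BKO, against 24.7, 21.4 and 22.04 FPKM if FF. No library of another condition reached the lowest fed one in either genotype. Relative to the fed mean, the fasted mean was 13.9-fold lower in BKO mice and 14.1-fold lower in FF mice. The cold mean was 4.03-fold lower in BKO and 3.21-fold lower in FF mice, and the mean in cold plus fasting 9.14-fold and 5.47-fold lower.

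On the log2 scale Hcar1 differed from the fed state by -3.28 in fasted BKO mice and -3.32 in fasted FF mice, each with an SE of 0.27. In cold the difference was -1.87 in BKO and -1.56 in FF mice (SE 0.26 each), and in cold plus fasting -2.83 in BKO and -2.23 in FF mice (SE 0.27 each). The group in cold plus fasting did not overlap the group in cold in either genotype, and was the lower of the 2. BKO minus FF came to 0.49 in fasted mice and 0.45 in fed mice (SE 0.27 each). Without FF fasted replicate 2, whose 3.31 FPKM was the highest of its group, the difference in fasted mice was 0.93 and was called.

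Hcar2, the receptor for beta-hydroxybutyrate, was also highest in fed mice, but its lowest means were in the cold conditions and not in the fasted one. It is the neighbour of Hcar1, on chromosome 5 from 123863570 to 123865499 on the same strand (ENSMUSG00000045502.6), again as 1 exon. Between them lie 11236 bases and 0 annotated genes. The longest run that a transcript of one shares with a transcript of the other is 18 bases.

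Hcar2 stood at 2.25, 2.06 and 2.42 FPKM in fasted BKO mice, against 1.64, 3.69 and 1.70 FPKM in fasted FF mice. In cold it was 1.09, 1.51, 2.52 and 0.737 FPKM in BKO mice, against 1.15, 1.08, 1.38 and 1.04 FPKM in FF mice. The cold plus fasting libraries held 0.567, 0.641 and 0.849 FPKM in BKO mice, against 1.12, 0.961 and 1.05 FPKM in FF mice. Here all 3 BKO libraries were below all 3 FF libraries, at a log2 difference of -0.28 (SE 0.23) that was not called. Fed levels were 11.5, 7.18 and 6.01 FPKM in BKO mice, against 7.62, 10.4 and 10.48 FPKM in FF mice, above every other library of the same genotype.

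The fed mean of Hcar2 was 3.67-fold above the fasted mean in BKO mice and 4.06-fold in FF mice. For cold these ratios were 5.62 and 8.18, and for cold plus fasting 12 and 9.11. Log2 differences from the fed state were -1.47 in fasted BKO and -1.69 in fasted FF mice (SE 0.23 each). They were -1.91 in cold BKO and -2.27 in cold FF mice (SE 0.21 each), and -2.41 and -2.35 in cold plus fasting (SE 0.23 each). The order of Hcar1 was therefore reversed: Hcar1 was lower in fasted than in cold mice of both genotypes with no overlap, whereas the mean of Hcar2 was higher in fasted than in cold mice. For Hcar2 the fasted and cold FF libraries did not overlap, while those of BKO mice did. Levels this close to the pseudocount of 1 have their fold understated on the log2 scale.

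Ptger3, the prostaglandin E2 receptor EP3, was lowest in fasted mice, intermediate in both cold conditions and highest in fed mice. It lies on chromosome 3, 157566892 to 157645888 on the forward strand (ENSMUSG00000040016.16), with 3 annotated transcripts that FPKM per gene does not separate. Its promoter is shown beside that of Hcar1 because the levels of the 2 receptors ran together across the libraries (Pearson r = 0.90 over 26). It is chr3:157566626-157566925 of GRCm38.p6 from RefSeq, forward strand. It has no capitals because it holds 0 matches to CACCC, where the promoter of Hcar1 holds 3.
Ptger3 promoter: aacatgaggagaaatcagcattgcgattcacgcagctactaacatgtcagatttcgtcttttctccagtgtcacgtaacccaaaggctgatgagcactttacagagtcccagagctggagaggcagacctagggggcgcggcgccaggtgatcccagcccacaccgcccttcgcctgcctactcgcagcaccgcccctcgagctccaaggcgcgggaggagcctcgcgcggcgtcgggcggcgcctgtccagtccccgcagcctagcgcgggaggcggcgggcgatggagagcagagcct

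In fasted BKO mice Ptger3 measured 3.43, 5.46 and 4.93 FPKM, against 3.81, 3.63 and 1.62 FPKM in fasted FF mice. Cold gave 19.7, 19.8, 13.7 and 16.5 FPKM in BKO mice, against 16.4, 15.1, 16.5 and 17.6 FPKM in FF mice. Cold plus fasting gave 13.7, 10.8 and 12.1 FPKM in BKO mice, against 11.3, 12.2 and 19.2 FPKM in FF mice. The 2 cold conditions formed a middle tier in both genotypes. Fed BKO mice had 35.0, 33.0 and 24.2 FPKM, against 40.2, 30.5 and 48.5 FPKM in fed FF mice. Fasted, intermediate and fed libraries did not overlap within a genotype.

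The log2 difference from fed mice was -2.50 in fasted BKO mice and -3.37 in fasted FF mice (SE 0.22 each), which are 6.67-fold and 13.2-fold lower means. The difference between these 2 responses was 0.87 (SE 0.31) and was not called. In cold Ptger3 differed by -0.78 in BKO and -1.21 in FF mice (SE 0.21 each), and in cold plus fasting by -1.25 in BKO and -1.43 in FF mice (SE 0.22 each). The call in cold BKO mice ended without BKO fed replicate 1 (-0.68) or replicate 2 (-0.72). Between genotypes Ptger3 differed by 0.51 in fasted mice and by -0.35 in fed mice (SE 0.22 each), neither of them called.

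Adora1, the A1 receptor for adenosine, was the steadiest of the 6 and the 1 member called between genotypes in fasted mice. There the library series and the genotype cannot be told apart, and the call ended under the alternatives given below. It lies on chromosome 1, 134199223 to 134235431 on the reverse strand (ENSMUSG00000042429.8). Mybph overlaps it on the other strand. Whether fragments were assigned by strand is not given in the sources used here. Fragments from bases that the 2 genes share therefore cannot be told apart.

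Fasted BKO mice had 32.8, 22.6 and 28.1 FPKM of Adora1, against 50.3, 38.0 and 35.6 FPKM in fasted FF mice. All 3 BKO libraries lay below all 3 FF libraries. Cold libraries were nearly level, at 22.3, 26.6, 23.8 and 22.4 FPKM in BKO mice, against 23.5, 21.4, 23.4 and 24.3 FPKM in FF mice. In cold plus fasting there were 20.1, 20.5 and 16.4 FPKM in BKO mice, against 22.8, 24.7 and 28.7 FPKM in FF mice. Again no BKO library reached the FF range. In the fed state the groups overlapped, at 44.7, 35.9 and 31.9 FPKM in BKO mice, against 39.0, 34.5 and 45.8 FPKM in FF mice.

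BKO minus FF was -0.55 for Adora1 in fasted mice, -0.40 in cold plus fasting and -0.09 in fed mice (SE 0.15 each), and 0.04 in cold (SE 0.13). The call in fasted mice ended with the library series as a covariate (-0.71, SE 0.21), in a fit of the fasted libraries alone, and without BKO fasted replicate 2 (-0.41), BKO fasted replicate 3 (-0.57) or FF fasted replicate 1 (-0.40). Fasted minus fed was -0.42 for Adora1 in BKO mice, where the ranges overlapped, and 0.05 in FF mice (SE 0.15 each). The BKO call ended without either of BKO fasted replicates 2 (-0.28) and 3 (-0.43) or BKO fed replicates 1 (-0.29) and 2 (-0.44), with quantile normalization (-0.40), with no filter on low values and in the groups compared alone. The difference between the 2 fasting responses was -0.47 (SE 0.21) and was not called. Cold gave -0.63 in BKO and -0.75 in FF mice (SE 0.14 each), and cold plus fasting -0.94 in BKO and -0.62 in FF mice (SE 0.15 each).

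Ffar4, also known as GPR120, was the single receptor of the 5 that was higher in cold. It lies on chromosome 19, 38097071 to 38114263 on the forward strand (ENSMUSG00000054200.6). Its promoter, chr19:38096829-38097128 of GRCm38.p6 from RefSeq, forward strand, is shown because Ffar4 was the member with higher levels in cold, with matches to CACCC on either strand in capitals.
Ffar4 promoter: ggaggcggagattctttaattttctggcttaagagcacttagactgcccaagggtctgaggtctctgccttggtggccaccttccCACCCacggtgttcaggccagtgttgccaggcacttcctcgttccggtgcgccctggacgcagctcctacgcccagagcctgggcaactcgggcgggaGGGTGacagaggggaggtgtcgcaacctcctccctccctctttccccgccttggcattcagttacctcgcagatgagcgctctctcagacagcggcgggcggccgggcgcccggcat

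Ffar4 was 24.7, 22.3 and 27.96 FPKM in fasted BKO mice, against 18.99, 33.5 and 24.2 FPKM in fasted FF mice. In cold the level was 42.8, 32.4, 57.8 and 55.3 FPKM in BKO mice, against 65.9, 90.1, 64.4 and 70.1 FPKM in FF mice. In cold every BKO library was below every FF library, at a log2 difference of -0.64 (SE 0.28) that was not called. Cold plus fasting held 74.3, 31.1 and 52.6 FPKM in BKO mice, against 52.6, 59.9 and 47.2 FPKM in FF mice. Fed mice had 20.6, 30.3 and 19.5 FPKM if BKO, against 21.7, 11.98 and 42.4 FPKM if FF. The cold and the fed groups of each genotype did not overlap, though BKO cold plus fasting replicate 2 lay only just above the highest fed BKO library.

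Relative to fed mice Ffar4 differed by 0.96 in cold BKO and 1.64 in cold FF mice (SE 0.31 each), or 2.00-fold and 2.86-fold in means. In cold plus fasting the log2 differences were 1.07 in BKO and 1.21 in FF mice (SE 0.33 each). Fasting at room temperature gave 0.11 in BKO and 0.15 in FF mice (SE 0.33 each). Without FF fed replicate 3, at 42.4 FPKM the highest of its group, the FF differences came to 2.09 for cold, to 1.65 for the combination with fasting and to 0.59 for fasting alone, the last of them not called. The 2 calls in BKO mice were fragile: the one in cold ended without any of BKO cold replicates 1, 3 and 4 or BKO fed replicates 1 and 3, at 0.85 to 1.00. That in cold plus fasting ended without BKO cold plus fasting replicate 1 (0.79) or 3 (1.03), or without BKO fed replicate 1 (1.00) or 3 (0.96). With array weights they were 0.74 and 0.49 and not called. Both also ended with quantile normalization (0.89 and 0.98) and with no filter on low values, and the one in cold plus fasting in the groups compared alone. The FF call in cold plus fasting ended without FF fed replicate 2 (0.78) and with the library series as a covariate (0.85), in libraries 15 to 32 alone (0.31, SE 0.37) and in the groups compared alone.

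Rgs2, the G protein regulator, was the most abundant of the 6 and was low wherever the mice were cold. It lies on chromosome 1, 143999338 to 144004161 on the reverse strand (ENSMUSG00000026360.9), with 4 annotated transcripts. Its promoter, chr1:144004100-144004399 of GRCm38.p6 from RefSeq, reverse strand, is shown because it was the single one of the members' promoters with matches to TGACG, a core of the cAMP response element. Matches on either strand to TGACG and to CACCC are in capitals.
Rgs2 promoter: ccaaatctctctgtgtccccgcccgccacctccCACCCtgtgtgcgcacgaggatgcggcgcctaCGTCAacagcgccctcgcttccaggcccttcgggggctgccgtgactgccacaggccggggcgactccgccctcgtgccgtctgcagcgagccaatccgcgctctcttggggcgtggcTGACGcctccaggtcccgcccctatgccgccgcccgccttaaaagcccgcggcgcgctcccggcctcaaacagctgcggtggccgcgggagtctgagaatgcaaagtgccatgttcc

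Rgs2 reached 135, 211 and 194 FPKM in fasted BKO mice, against 179, 216 and 161 FPKM in fasted FF mice. In cold it was 68.7, 49.97, 29.6 and 61.6 FPKM in BKO mice, against 24.7, 41.4, 19.2 and 18.4 FPKM in FF mice. The single overlap in cold came from BKO replicate 3 and FF replicate 2. Cold plus fasting gave 29.9, 66.3 and 27.9 FPKM in BKO mice, against 17.4, 62.2 and 37.8 FPKM in FF mice. Fed BKO mice had 132, 114 and 125 FPKM, against 210.4, 204 and 68.7 FPKM in fed FF mice. FF fed replicate 3 thus lay at a level seen in cold BKO mice, while fasted libraries of both genotypes were all at 135 FPKM or more.

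Compared with fed mice Rgs2 differed by -1.28 in cold BKO and -2.50 in cold FF mice (SE 0.41 each), or 2.35-fold and 6.20-fold lower means. In cold plus fasting the differences were -1.67 in BKO and -2.02 in FF mice (SE 0.43 each). In fasted mice they were 0.52 in BKO and 0.36 in FF mice (SE 0.43 each), neither of them called, and the FF value turned to -0.17 without FF fed replicate 3. The difference between the cold responses was 1.21 (SE 0.57), and BKO minus FF in cold was 1.00 (SE 0.38), neither of them called. Without FF fed replicate 3 the FF difference was -3.02 in cold and -2.55 in cold plus fasting, and the difference between the cold responses 1.74 (SE 0.54), still not called. In libraries numbered 15 to 32 alone, where FF fed replicate 3 is the only fed FF library and cold FF replicate 1 the only cold one, the FF cold difference was -1.44 and that between the responses 0.15. The call in cold BKO mice ended without BKO cold replicate 2 (-1.28) or 3 (-1.04) or any 1 of the BKO fed libraries (-1.23 to -1.34), with array weights (-1.05) and with no filter on low values. That in cold plus fasting ended without BKO cold plus fasting replicate 3 (-1.45), and the FF one with the library series as a covariate (-1.53), in libraries 15 to 32 alone (-0.97, SE 0.57) and in the groups compared alone.

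The promoters share a high content of G and C, from 59.7% for Hcar1 through 63.7% for Ffar4, 64.0% for Ptger3 and 66.0% for each of 2 listed for Adora1 to 70.0% for Rgs2, against a median of 52.7% over 32851 mouse promoters. Searched on both strands, TGACG occurred 2 times in the Rgs2 window, starting at -185 on the reverse strand and -67 on the forward strand counted from the start of transcription. It occurred in 0 of the others, and in 20.8% of all promoters. The full cAMP response element, TGACG followed by TCA, was in none of these windows and in 1.79% of all promoters. CACCC occurred 3 times for Hcar1, 2 for Ffar4, 1 for Rgs2 and 1 in each Adora1 window, and 57.5% of all promoters hold it. The direct repeat bound by PPARs, 2 copies of AGGTCA on 1 strand with 1 base between them, was in none of these windows and in 0.0396% of all promoters. The matches are letters in a window and say nothing of binding.

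Across the 26 libraries Hcar1 ran with Ptger3 (r = 0.90) and with Hcar2 (r = 0.72), and Hcar2 ran with Adora1 (r = 0.75). Rgs2 and Ffar4 ran opposite to each other (r = -0.85). In likeness to Ffar4, Rgs2 ranked 10290 among genes with a mean of at least 2 FPKM, which number 10297 with Ffar4 itself included. The libraries share their groups, so these values mostly describe the group means. With the mean of each of the 8 groups removed, r was 0.66 for Hcar1 and Hcar2, 0.50 for Hcar1 and Ptger3, and -0.40 for Ffar4 and Rgs2. It was 0.18 for Hcar2 and Adora1. Libraries of a pair are scaled by 1 library total, and these values are a description with no test.

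Steap4 (r = 0.93), Gm13111 (0.93) and A830018L16Rik (0.91) had the pattern most like that of Hcar1 over the 26 libraries. For Ptger3 they were Col15a1, a collagen (0.95), Fsd2 (0.95) and the adipocyte galectin Lgals12 (0.95). Hcar2 was closest to Lmo1 (0.95), to the glutamate transporter Slc1a3 (0.93) and to Pla2g16 (0.91), the adipocyte phospholipase that frees arachidonic acid for prostaglandin E2. Adora1 was closest to Pxdn (0.89), Synj1 (0.85) and Zmym3 (0.85), and Ffar4 to Ankrd37 (0.89), the adenylate kinase Ak4 (0.87) and Lrrc20 (0.86). Rgs2 was closest to Angptl4, the secreted inhibitor of lipoprotein lipase (0.93), Eri2 (0.91) and Erap1 (0.90). Steap4 averaged 24.8 FPKM in fasted BKO, 36.8 in cold BKO, 25.1 in cold plus fasting BKO and 114 in fed BKO mice. Angptl4 averaged 197, 69.8, 62.4 and 102 FPKM in the same 4 groups of BKO mice.

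Most other Gi-coupled receptors of the pathway were scarce in this tissue. Of 10 in the list only Sucnr1, the succinate receptor, and Aplnr, the apelin receptor, passed the filter. Adra2a, the alpha2A-adrenergic receptor, did not exceed 0.107 FPKM in any library, Ffar2 reached 1.33 FPKM at most, and Ffar3 was listed at 0 throughout. Aplnr fell in fasted FF mice, to 1.86 ± 0.426 FPKM against 8.25 ± 3.69 FPKM in fed FF mice (SD, n = 3 each; log2 difference -1.61, limma adjusted p = 0.000303). The fall is not particular to FF mice as a count: 1 of the 2 was also called lower in fasted BKO mice (27.4% of all tested genes called). In cold plus fasting 1 of the 2 was called lower in BKO mice (19%) and 0 in FF mice (20.5%).

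The counts for lists below stand beside shares over all 12702 tested genes of 27.4% called in fasted BKO mice (1636 higher, 1849 lower) and 37.5% in fasted FF mice (2298 higher, 2463 lower). In cold the shares were 16.2% in BKO mice (1235 higher, 826 lower) and 23.6% in FF mice (1686 higher, 1307 lower). Between fasted BKO and fasted FF mice 8.68% were called (576 higher, 527 lower). A list's share near these is no result about the list.

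Gs-coupled receptors, which oppose the Gi receptors on adenylyl cyclase, fell with fasting in FF mice in 5 of 9 tested cases with 0 rises, and the list's median was -0.52, where 37.5% of all tested genes were called. In fasted BKO mice 1 of 9 rose and 0 fell. Adrb3, the main beta-adrenergic receptor of mouse brown fat, fell to 47.01 ± 17.4 FPKM in fasted FF mice, against 170.6 ± 58.0 FPKM in fed FF mice (SD, n = 3 each; log2 difference -1.84, adjusted p = 5.17e-05). In BKO mice it was 127 ± 43.5 FPKM fasted and 156 ± 35.5 FPKM fed (SD, n = 3 each; -0.33, adjusted p = 0.441). Between genotypes, 4 of the 9 rose in fasted BKO mice and 0 fell, with a median of 0.72, where 8.68% of all tested genes were called. They were Adrb3, Adrb1, Sctr and Tshr. The difference was 1.41 for Adrb3 (SE 0.30, adjusted p = 0.00489) and 1.06 for Sctr, the secretin receptor (SE 0.20, adjusted p = 0.00176). With the library series as a covariate, 3 of these 4 calls ended: Adrb3 gave 1.03 (adjusted p = 0.276), Adrb1 0.59 against 1.46 (adjusted p = 0.633) and Tshr 0.75 against 0.83 (adjusted p = 0.402). The same 3 ended in the groups compared alone, while the call of Sctr held under every alternative run. None of these alternatives separates genotype from library series in fasted mice, where all BKO libraries have later numbers and all FF libraries earlier ones. The difference of fasting responses between genotypes was 1.51 for Adrb3 and did not pass (adjusted p = 0.107). The calls of Adrb1 and Tshr each also ended when single libraries were left out: BKO fasted replicate 1 or FF fasted replicate 3 for Adrb1, and any of 18 of the 26 for Tshr.

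**Figure D4:**
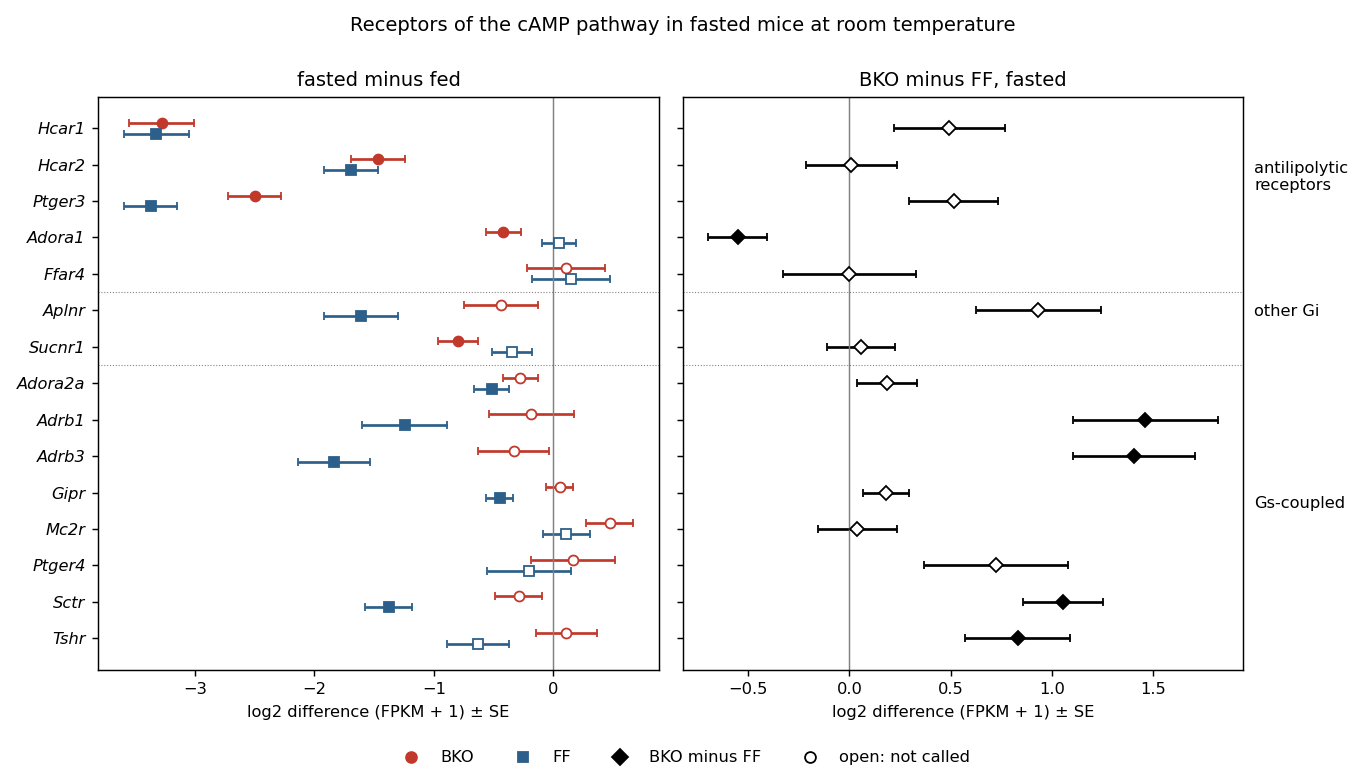
Log2 difference (log2(FPKM + 1) scale, with SE) of the 5 antilipolytic receptors, the 2 other Gi-coupled and 8 Gs-coupled receptors, between fasted and fed mice of each genotype (left) and between BKO and FF mice when fasted (right). Open symbols were not called; Adrb3, Adrb1, Sctr and Tshr are called higher in fasted BKO mice, and Adora1 is called lower.

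Among the Gs-coupled receptors in cold, 2 of 9 rose and 2 fell in BKO mice, and 1 rose and 2 fell in FF mice. Adrb3 was 159 ± 28.6 FPKM in cold BKO mice and 151 ± 34.8 FPKM in cold FF mice (SD, n = 4 each), and its difference from the fed state did not pass (adjusted p = 0.947 in BKO and 0.744 in FF mice).

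Of 19 tested G protein subunits, 1 rose and 7 fell in fasted FF mice and 0 rose and 5 fell in fasted BKO mice, beside the 37.5% and 27.4% of all tested genes called. Gnai2, an abundant inhibitory subunit, was 47.9 ± 2.19 FPKM in fasted BKO and 53.5 ± 1.48 FPKM in fed BKO mice (SD, n = 3 each; adjusted p = 0.0783). In FF mice it fell by 0.20 with fasting (adjusted p = 0.018), a call that ended without FF fasted replicate 2 or FF fed replicate 2 and in the groups compared alone. Gng7 fell in all 3 conditions in both genotypes, by 1.05 in cold BKO mice (adjusted p = 1e-06) and by 0.96 in cold FF mice (adjusted p = 2.1e-06). Gnb5, the G protein beta subunit that pairs with the R7 class of RGS proteins, fell in fasted mice, at -0.58 in BKO mice (adjusted p = 0.00262) and -1.23 in FF mice (adjusted p = 4.28e-07). Rgs7, an R7 protein, fell in fasted FF mice to 14.9 ± 3.83 FPKM, against 24.1 ± 0.813 FPKM in fed FF mice (SD, n = 3 each; adjusted p = 0.000366). In fasted BKO mice it was 24.5 ± 0.464 FPKM, against 24.7 ± 2.77 FPKM in fed BKO mice (SD, n = 3 each; adjusted p = 0.984), and the difference between the fasting responses did not pass (0.68, adjusted p = 0.107).

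Among 7 tested adenylyl cyclases, the enzymes that make cAMP, 2 rose and 2 fell in cold in each genotype. Adcy3 rose in cold to 113 ± 9.38 FPKM in BKO mice (n = 4), against 58.8 ± 17.4 FPKM in fed BKO mice (SD, n = 3; log2 difference 0.97, adjusted p = 0.00562). In FF mice it rose to 126 ± 14.6 FPKM (n = 4), against 45.5 ± 14.4 FPKM fed (SD, n = 3; 1.49, adjusted p = 7.35e-05). Adcy10, the soluble cyclase, rose by 1.64 in cold in BKO mice (adjusted p = 1.57e-05) and by 1.64 in FF mice (adjusted p = 1.04e-05). Adcy5 fell by 1.03 in cold BKO mice (adjusted p = 0.00705) and by 0.98 in cold FF mice (adjusted p = 0.00724), the FF call ending without FF fed replicate 2 and in libraries 15 to 32 alone (-0.53, adjusted p = 0.797). The BKO call ended in the groups compared alone (adjusted p = 0.110). In libraries 15 to 32 the cold FF calls of Adcy3 (1.17, adjusted p = 0.211), Adcy10 (1.22, adjusted p = 0.177) and Gng7 (-0.77, adjusted p = 0.0594) ended too. Fasting gave 0 rises and 1 fall in BKO mice and 0 rises and 3 falls in FF mice.

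Of 18 other RGS genes 7 were tested, and in cold 2 rose and 1 fell in BKO mice and 1 rose and 2 fell in FF mice. Rgs19, which acts on Gi subunits, fell by 0.60 in cold BKO mice (adjusted p = 0.000362) and by 0.54 in cold FF mice (adjusted p = 0.000747). Rgs3 rose by 0.58 in fasted BKO mice (adjusted p = 0.00259) and fell by 0.59 in cold FF mice (adjusted p = 0.00177). In libraries 15 to 32 alone the cold FF calls ended for Rgs19 (-0.31, adjusted p = 0.555) and Rgs3 (-0.43, adjusted p = 0.451).

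Downstream, 15 genes of protein kinase A and the phosphodiesterases were tested, of which 0 rose in cold in either genotype and 1 fell in BKO mice. Prkaca, the catalytic subunit, fell with fasting by 0.58 in BKO mice (adjusted p = 1.14e-05) and by 0.61 in FF mice (adjusted p = 4.72e-06). Pde3b, the phosphodiesterase through which insulin opposes lipolysis, was 89.9 ± 14 FPKM in fasted BKO mice and 62.2 ± 3.94 FPKM in fed BKO mice (SD, n = 3 each; 0.52, adjusted p = 0.0442), a call that ended without any of 7 of the 26 libraries and with no filter on low values. Pde2a was not analysed here.

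Among the 9 tested lipolysis genes, 2 rose and 2 fell in fasted BKO mice, 2 rose and 4 fell in fasted FF mice, and 1 rose and 0 fell in cold in each genotype. Pnpla2, the lipase ATGL, did not pass in any of the 13 comparisons. Lipe, hormone-sensitive lipase, was 643 ± 49.9 FPKM in fasted BKO and 514 ± 61.7 FPKM in fasted FF mice (SD, n = 3 each; 0.33, adjusted p = 0.0302), a call that ended without BKO fasted replicate 3 or FF fasted replicate 2 or 3. It also ended with the library series as a covariate (0.18, adjusted p = 0.591), quantile normalization (0.24, adjusted p = 0.124), array weights (0.31, adjusted p = 0.0813), no filter on low values and the groups compared alone. Mgll, monoglyceride lipase, rose in cold by 0.72 in BKO mice (adjusted p = 0.000381) and by 1.08 in FF mice (adjusted p = 2.84e-06), and fell in the fasted state by 0.58 (adjusted p = 0.00256) and 0.78 (adjusted p = 9.57e-05). Its cold FF call ended in libraries 15 to 32 alone (0.88, adjusted p = 0.0636). Plin1, the droplet coat protein that guards fat from lipases, was 541 ± 90.3 FPKM in fasted BKO mice and 254 ± 96.5 FPKM in fasted FF mice (SD, n = 3 each; 1.14, adjusted p = 0.000141), a call that ended in the groups compared alone (adjusted p = 0.128). The difference of its fasting responses was 1.06 (adjusted p = 0.0408), a call that ended without any of 13 of the 26 libraries, with the library series as a covariate (1.04, adjusted p = 0.06004), with quantile normalization, with no filter and in the groups compared alone.

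For the ligand of Hcar1, lactate dehydrogenase A (Ldha) went the same way as the receptor with fasting and the opposite way with cold. It fell in fasted mice by 0.72 in BKO mice (adjusted p = 9.2e-06) and by 0.72 in FF mice (adjusted p = 6.28e-06). It rose in cold by 0.59 in BKO mice (adjusted p = 0.000119) and by 0.54 in FF mice (adjusted p = 0.000178), the FF call ending in libraries 15 to 32 alone (0.42, adjusted p = 0.280). Slc16a7, a transporter of lactate and ketone bodies, fell in cold, at log2 differences of -1.53 in BKO mice (adjusted p = 1.12e-06) and -1.505 in FF mice (adjusted p = 9.91e-07). Of 8 tested genes of this list, 3 rose and 1 fell in cold in BKO mice and 4 rose and 1 fell in FF mice.

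For Ptger3, Pla2g16 fell in all 3 conditions, to 108.5 ± 10.6 FPKM fasted (n = 3), 66.9 ± 4.997 in cold (n = 4) and 66.1 ± 6.98 in cold plus fasting (n = 3) in BKO mice, against 163 ± 11.8 FPKM in fed BKO mice (SD, n = 3). In FF mice the means were 109, 70.8 and 62.9 FPKM, against 165 FPKM fed, and the limma adjusted p ranged over both genotypes up to 0.000157. Hpgd, which breaks down prostaglandins, rose in fasted FF mice by 0.84 (adjusted p = 0.000428). In fasted BKO mice it was called higher too, by 0.46. That call ended without any of 9 of the 26 libraries, with no filter on low values and in the groups compared alone. Of 6 tested prostaglandin E2 genes, 1 rose and 3 fell in fasted BKO mice, with the same counts in fasted FF mice. In cold 0 rose and 1 fell in each genotype. Ptgs2, the inducible cyclooxygenase, did not exceed 0.0777 FPKM.

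For Adora1, the ectonucleotidase Nt5e, which makes adenosine outside the cell, was 1.22 ± 0.385 FPKM in fasted BKO and 3.46 ± 0.745 FPKM in fasted FF mice (SD, n = 3 each; -1.01, adjusted p = 0.000935). With the library series as a covariate it was -1.04 (adjusted p = 0.0516), and the call also ended in the groups compared alone (adjusted p = 0.0731). Slc29a1, the adenosine transporter ENT1, rose in cold by 0.87 in BKO mice (adjusted p = 0.00146) and by 0.68 in FF mice (adjusted p = 0.00781), the FF call ending in libraries 15 to 32 alone (0.76, adjusted p = 0.252). Of 7 tested adenosine genes, 0 rose and 2 fell in fasted BKO relative to fasted FF mice, and 1 rose and 1 fell in cold in each genotype.

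In bulk tissue, fewer cells of a type and less RNA per cell cannot be told apart, so the markers of the cells present are given beside these values. Summed levels of 10 brown adipocyte markers were 17665 to 20274 FPKM in fasted BKO and 15235 to 16947 FPKM in fasted FF mice. They were 17322 to 20066 FPKM in fed BKO and 16819 to 19509.6 FPKM in fed FF mice. Of the 11 listed markers Ucp1 was left out of the sum as a failed estimate, since it was listed at 0 in some libraries. Of 5 erythroid markers 4 rose in cold in BKO mice and 5 in FF mice, and the sum was 415 to 701 FPKM in cold BKO and 342 to 601 FPKM in cold FF mice, against 174 to 471 FPKM in fed BKO and 120.4 to 188 FPKM in fed FF mice. Of 6 fibroblast markers 3 fell in cold in each genotype. The 6 endothelial markers gave 3 rises and 0 falls in cold BKO mice and 4 rises and 1 fall in cold FF mice. The part of these shifts in the levels of the 6 genes was not tested.

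The 4 tested white adipocyte markers, of 5 listed, summed to 19.2 to 29.7 FPKM in fasted BKO and 24.1 to 37.3 FPKM in fasted FF mice. In cold they summed to 19.7 to 51.4 FPKM in BKO and 22.99 to 32.9 FPKM in FF mice, against 43.7 to 80.0 FPKM in fed BKO and 46.1 to 51.5 FPKM in fed FF mice. Most of the sum was Retn, which averaged 29.2 FPKM over all libraries. By gene, 0 of the 4 rose and 3 fell in fasted BKO mice, and 1 rose and 2 fell in fasted FF mice. In cold 0 rose and 2 fell in BKO mice and 0 rose and 1 fell in FF mice, and in cold plus fasting 0 rose and 1 fell in BKO mice and 0 were called in FF mice. Their part in the levels of the 6 genes was not tested. Macrophages also express Hcar2 and Ffar4. The 6 macrophage markers summed to 40.1 to 63.6 FPKM in cold BKO and 46.8 to 57.7 FPKM in cold FF mice, against 53.1 to 88.1 FPKM in fed BKO and 55.8 to 65.3 FPKM in fed FF mice, with 1 of 6 falling in cold BKO and 3 of 6 in cold FF mice. Neutrophils express Hcar2 as well. Of 6 neutrophil markers S100a8 and S100a9 were tested, and their sum was 1.39 to 3.59 FPKM in fasted BKO, 1.017 to 5.48 FPKM in cold BKO and 0.895 to 2.73 FPKM in cold plus fasting BKO mice, against 1.55 to 11.9 FPKM in fed BKO mice. In FF mice it was 1.38 to 2.45 FPKM fasted, 1.27 to 2.60 FPKM in cold and 1.503 to 1.73 FPKM in cold plus fasting, against 0.608 to 5.07 FPKM fed. The mean sum was thus highest in fed BKO mice, at 7.06 FPKM, with overlapping ranges and 0 of the 2 markers called in any of the 13 comparisons. Of the 4 markers below the filter, Csf3r reached 0.709, Retnlg 0.685, Ly6g 0.474 and Cxcr2 0.162 FPKM at most. The part of neutrophils in the levels of Hcar2 was not tested.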

How the data were processed

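RNA-seq of mouse brown adipose tissue was deposited by the authors as 1 table of FPKM per gene for 26 libraries, made with STAR, Cufflinks and Cuffdiff on mm10, per the submitters' processing notes; versions are not given in the sources used here. Depth is unknown, so precision rests on the spread between libraries. Here 33 genes listed at 0 in a library while others held 100 FPKM or more were removed as failed estimates, and genes at 1 FPKM or more in at least 3 libraries were kept, leaving 12702. Values were analysed as log2(FPKM + 1) with limma 3.58.1 in R 4.3.3. One fit of 8 group means gave 13 two-sided contrasts, adjusted over all genes by Benjamini-Hochberg at 0.05. The fit was tried on simulated data of independent normal values. These held neither a library series nor an unusual library, so the trial says nothing of those. Levels are mean ± SD, differences log2 with SE.

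Named were the 6 genes, Klf15, Adrb3, Gnai2, Pde3b, Lipe, Pnpla2, up to 4 called genes per list and contrast by adjusted p with at least 2 FPKM in the higher group, and the 3 genes most like each member by Pearson r. Of the others, Adra2a, Ffar2, Ffar3, Ptgs2, Retn and the neutrophil markers were named after their values were seen. The members, 10 lists with 125 genes and 11 marker lists with 69 genes were chosen with earlier results of these data known. Positions are from GENCODE on GRCm38. Promoters are from RefSeq (GRCm38.p6) and matched 5 of the 6 genes. Alternatives were other pseudocounts, filters, quantile normalization, array weights, the library series as a covariate, libraries 15 to 32 alone, the groups compared alone, and leaving out each library. Results for some genes of the lists are not reported here.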

Additional observations from a re-analysis of the deposited data

How the results depend on the processing

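For the 6 genes, 2558 of 2621 values under the alternatives moved by less than the spread between replicates, 63 moved by more and 0 changed sign while called. These counts are of the size of a difference and do not count lost calls. Of 78 results for the 6 genes 32 were called, and 8 of these calls ended when a single library was left out. A call was gained in this way for 1 result. Other alternatives ended further calls, among them that of Rgs2 in FF mice in cold plus fasting. For the other named genes 4641 of 4980 kept their direction and side of the threshold, 339 lost the call and 0 reversed. Counts of called genes moved more. BKO minus FF gave 28 calls in fed mice, 18 with a mean of at least 5 FPKM, 7 with the library series as a covariate, 9 in libraries 15 to 32, 785 with array weights and 6 in the groups compared alone. In fasted mice 1103 became 147 with the covariate and 76 in the groups alone. In cold 51 became 17 with the covariate, 8 in libraries 15 to 32 and 108 with array weights, and in cold plus fasting 30 became 140 with array weights and 6 in the groups alone. In FF mice the fasting count of 4761 was 3127 in the groups alone. The cold count of 2993 was 117 in libraries 15 to 32, which leave 1 cold and 1 fed FF library, and 6681 with array weights. The FF count in cold plus fasting of 2600 was 818 with the covariate, 295 in libraries 15 to 32 and 5713 with array weights. In BKO mice the cold count of 2061 was 3286 with array weights, and that in cold plus fasting of 2408 was 1604 with a mean of at least 5 FPKM, 3905 with array weights and 586 in the groups alone. The 91 differences of fasting responses became 315 with array weights and 5 in the groups alone. The 1 for cold was 0 with a pseudocount of 0.1 or a mean of at least 5 FPKM, 2 with quantile normalization or the covariate and 115 with array weights. The 1 for cold plus fasting was 0, 0 and 2 under the same pseudocount, filter and quantile normalization, 101 with array weights and 2 in the groups alone. The cause of these shifts was not tested.

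Leaving out each library in turn gave 13 to 105 calls for BKO minus FF in fed mice (105 without FF fed replicate 3, 13 to 15 without BKO fed replicate 2 or 3 or FF fed replicate 1 or 2), 422 to 1389 in fasted mice (422 without BKO fasted replicate 3, 447 without FF fasted replicate 3), 33 to 54 in cold (33 without BKO replicate 1 or FF replicate 2) and 16 to 41 in cold plus fasting (16 to 19 without BKO replicate 2 or 3 or FF replicate 1 or 2). In FF mice it gave 3786 to 4998 for fasting, 1759 to 3235 for cold and 1538 to 2856 for cold plus fasting, the lowest for both cold conditions arising when FF fed replicate 1 was dropped. Dropping FF fed replicate 2 gave 1800 and 1587, and without FF cold plus fasting replicate 1 the count in cold plus fasting was 1614. In BKO mice it gave 2603 to 3756 for fasting, 1389 to 2297 for cold and 1424 to 2472 for cold plus fasting (1424 without BKO cold plus fasting replicate 3, 1450 without BKO fed replicate 2). Differences of responses gave 25 to 241 for fasting (25 without BKO fasted replicate 3, 241 without FF fasted replicate 2), 1 to 4 for cold and 1 to 4 for cold plus fasting. No paired analysis was possible because each library has its own animal number in the labels. The replicate numbers used here count the libraries within a group and match no animals across groups.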
